A study of Homo sapiens with 18 samples.

Results

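Molm-14 and MV4-11, 2 human lines of acute myeloid leukaemia, were compared gene by gene in how their RNA responded to the SHP2 inhibitor RMC-4550. Genes entered the comparison where at least 3 libraries of each line held at least 1 CPM, a read count scaled to a common library size, which 13458 of the 40184 gene IDs in the deposited table did. Another 513 IDs reached that level in Molm-14 alone and 1281 in MV4-11 alone, and these were not compared. The named gene just inside the limit was LINC01126, whose third-highest library in its weaker line stood at 1.00 CPM, and the one just outside it was POTEI, at 0.984 CPM. In 271 of the 13458 genes (2.01%), 1 of the 2 groups of a line lay below 1 CPM in each library, so that the gene entered through the group where it was high and its direction in that line was partly fixed by the filter.

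Both lines are labelled as FLT3-ITD acute myeloid leukaemia from blood and were grown in the same serum-containing medium. Each line was cultured for 24 h with DMSO, the vehicle, or with RMC-4550 at 500 nM, and each of the 4 groups had 3 libraries that the labels call biological replicates. Each line is 1 established culture, so the comparison describes these 2 lines and not a genotype. The comparison used 12 of the 18 libraries of the series.

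SHP2, the phosphatase encoded by PTPN11, couples activated receptor tyrosine kinases to RAS and so to MAPK signalling, and FLT3-ITD is a form of the receptor FLT3 that signals without its ligand. RMC-4550 holds SHP2 in its closed, inactive form. In leukaemic myeloid cells this pathway is known for driving proliferation and for feedback genes of the Sprouty, SPRED and DUSP families that follow ERK activity. Interferon-response genes belong to another pathway, in which factors that include STAT2 and IRF9 bind a short promoter element called ISRE.

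Read totals ran from 17434810 to 19820341 per library, and replicates correlated at 0.958 to 0.993 (Pearson's r of log2 values across genes). The share of reads in mitochondrial genes did not follow the groups. It lay between 5.07% and 7.02% in 8 libraries. It reached 15.0% in RMC-4550 library 2 of Molm-14, 12.7% and 14.6% in DMSO libraries 1 and 3 of MV4-11, and 10.5% in RMC-4550 library 1 of MV4-11. The group means moved with the comparison, since the share was 3.14 points higher with RMC-4550 in Molm-14 and 3.24 points lower in MV4-11. Values with this share as a covariate are therefore given for most of the lists and genes described. Other fits that used this share are given with the dependence on processing. Its part in the differences without the covariate was not tested further. The median standard deviation between replicates was 0.07 (log2) for Molm-14 with DMSO and 0.19 to 0.26 in the other groups.

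The myeloid markers SPI1, CD33, CEBPA, CSF3R, LYZ, HOXA9, HOXA10, MEIS1 and FLT3 were expressed in all 4 groups, while MPO, the granule enzyme myeloperoxidase, stayed at or below 4.40 CPM in each library. T-cell markers held at most 1 read in any library. The B-cell markers PAX5, CD79A and MS4A1 summed to 6.21 to 17.4 CPM, carried by PAX5, with at most 2 reads of MS4A1. Of the 7652 genes at 20 CPM or more in Molm-14 given DMSO, 0 stood below 3% of that level in MV4-11, whereas 44 of the 7600 genes at 20 CPM or more in MV4-11 given DMSO stood below 3% of that level in Molm-14. The lowest of the 7652 stood at 4.04%. Whether the MV4-11 cultures held cells of another line was not tested beyond such levels. If they did, each MV4-11 change, and with it each response difference, would be that of a mixture.

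RMC-4550 changed the RNA of both lines, but the change was larger in Molm-14 for most genes whose response differed. The response difference is the log2 change with RMC-4550 in Molm-14 minus that in MV4-11, so a positive value means that the gene moved further up, or less far down, in Molm-14. By limma's test with Benjamini-Hochberg adjustment over 13458 genes, it was called at an adjusted p under 0.05 for 1158 genes (8.60%), of which 639 were positive (4.75%) and 519 negative (3.86%). The response of Molm-14 itself was called for 5287 genes (39.3%) and that of MV4-11 for 1250 (9.29%). The RMC-4550 and DMSO libraries did not overlap for 60.4% of genes in Molm-14 and 24.2% in MV4-11. With median-ratio scaling the split of the response difference was 508 positive and 676 negative, so that the balance of directions depended on the scaling. In bulk RNA, a change in how many cells respond and a change within each cell cannot be told apart.

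Among the 1158 genes, 881 were called in Molm-14 alone, 515 of them as rises and 366 as falls. A further 165 changed in the same direction in both lines, with the larger change in Molm-14 for 147 and in MV4-11 for 18. Only 75 were called in MV4-11 alone, 46 as rises and 29 as falls, 22 changed in opposite directions, and 15 were called in neither line. These counts depended on single libraries. Leaving out any 1 of the 3 Molm-14 DMSO libraries, MV4-11 DMSO replicate 1 or 3, or MV4-11 RMC-4550 replicate 2 or 3 lowered the 1158 to between 407 and 457, and leaving out MV4-11 DMSO replicate 2 raised it to 3863. Of the 1158 genes, 349 were called whichever of the 12 libraries was left out. Of the 1158, 72 (6.22%) had entered through 1 group of a line only.

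**Figure D1:**
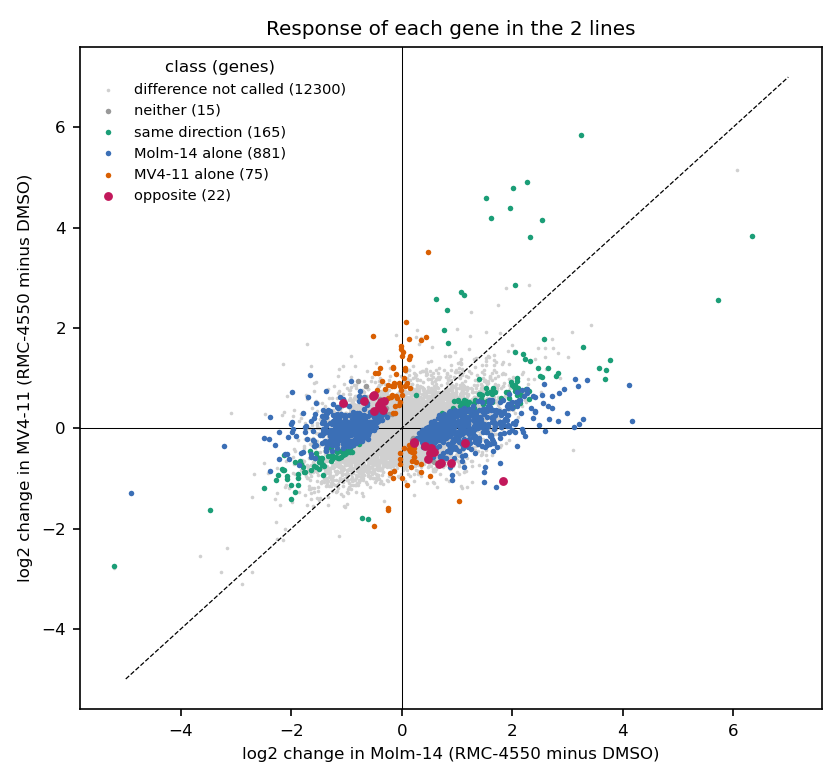
Each point is 1 of 13458 genes, with its log2 change with RMC-4550 in Molm-14 on the horizontal axis and in MV4-11 on the vertical axis, coloured by its class; the dashed line marks equal change. The 881 genes called in Molm-14 alone spread along the horizontal axis, and the 75 called in MV4-11 alone along the vertical one.

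With the mitochondrial read share of each library as a covariate, the response difference was called for 3080 genes (22.9%), 1738 positive and 1342 negative. The response was then called for 58.9% of genes in Molm-14 and 37.1% in MV4-11. The difference was called again with the same sign for 1142 of the 1158 genes, and all 1158 kept their sign. The classes were less steady than the signs. All 22 opposite genes and all 165 genes with a shared direction kept their class, as did 59 of the 75 called in MV4-11 alone. Of the 881 called in Molm-14 alone, 564 kept that class, 254 were then also called in MV4-11 in the same direction, and 50 were called there in the opposite direction. A gene listed as responding in Molm-14 alone was thus not shown to be still in MV4-11. Of the 63 named genes with a called difference, 44 kept their class.

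Most interferon-response genes rose further in MV4-11 than in Molm-14. Of 45 listed genes, 41 were compared, and 39 of these rose in MV4-11 (against 3.51% of all genes) while 21 rose and 1 fell in Molm-14 (against 18.3% and 21%). The response difference was called negative for 31 of the 41 and positive for 0, against 3.86% and 4.75% of all genes. At an unadjusted limma p under 0.05 these counts were 34 and 0, and with voom weights 31 and 0. The median log2 change of the list was 1.81 in MV4-11 and 0.48 in Molm-14, and its median response difference was -1.42 against -0.03 for all genes. Of the 31, 16 were called in MV4-11 alone, 14 rose in both lines, and 1, BST2, fell in Molm-14 and was not called in MV4-11. Of the 41, IFI44, IFI44L, OAS3, OASL and SIGLEC1 had entered through 1 group of a line only. With the covariate the median difference was -1.07 and 33 of 41 were called negative, against 9.97% of all genes. Without it, leaving out single libraries gave 21 to 33.

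The 4 promoters shown here belong to interferon-response genes with a negative response difference. They were chosen, after the values were seen, as the 4 largest differences among list members with a start site found in a GENCODE transcript and a promoter that holds ISRE, searched as GAAA, any 2 bases and GAAA on both strands of the 250 bases before the start site, and the capitals mark each match. The sequences come from RefSeq on GRCh38.p14 and are the plus strand, 5′ to 3′: IFIT1 at chr10:89392373-89392622, IFIT3 at chr10:89327747-89327996, IFI44L at chr1:78620198-78620447 and OAS3 at chr12:112938224-112938473.
IFIT1: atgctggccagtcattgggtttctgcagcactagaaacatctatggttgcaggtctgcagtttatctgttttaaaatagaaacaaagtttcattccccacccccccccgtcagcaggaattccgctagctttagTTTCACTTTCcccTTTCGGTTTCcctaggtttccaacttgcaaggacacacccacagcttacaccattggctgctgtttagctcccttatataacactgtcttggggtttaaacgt
IFIT3: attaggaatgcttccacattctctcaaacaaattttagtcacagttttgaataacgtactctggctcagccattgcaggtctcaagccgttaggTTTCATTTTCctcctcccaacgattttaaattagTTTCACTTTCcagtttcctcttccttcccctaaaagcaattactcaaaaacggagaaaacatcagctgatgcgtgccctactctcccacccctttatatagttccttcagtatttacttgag
IFI44L: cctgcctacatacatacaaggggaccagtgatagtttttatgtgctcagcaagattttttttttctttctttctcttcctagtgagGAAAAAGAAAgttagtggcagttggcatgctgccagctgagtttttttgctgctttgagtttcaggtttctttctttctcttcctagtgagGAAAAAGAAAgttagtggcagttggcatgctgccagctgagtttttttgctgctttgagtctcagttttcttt
OAS3: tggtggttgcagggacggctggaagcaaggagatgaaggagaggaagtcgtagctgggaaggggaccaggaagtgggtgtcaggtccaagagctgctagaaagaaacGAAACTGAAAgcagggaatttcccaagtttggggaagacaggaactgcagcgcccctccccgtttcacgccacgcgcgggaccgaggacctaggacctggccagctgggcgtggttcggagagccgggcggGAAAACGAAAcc
Each of the 4 promoters held 2 matches. Of the 41 list members, 32 were found in the promoter table, and 18 of these held a match, against 3.07% of 27305 promoters. A match was found for 15 of the 24 members with a called negative difference that were in the table. A match is a description of these letters and shows no binding.

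IFIT1, which encodes a protein that binds foreign RNA, stood at 2.33, 2.13 and 2.28 CPM in the Molm-14 DMSO libraries and at 9.57, 8.46 and 9.61 CPM with RMC-4550. MV4-11 held it at 1.08, 0.972 and 1.08 CPM with DMSO and at 34.2, 30.3 and 25.1 CPM with RMC-4550. The groups did not overlap in either line, and MV4-11 started lower and ended higher. The log2 change was 2.02 in Molm-14 and 4.80 in MV4-11, a response difference of -2.78 ± 0.20 (SE, limma adjusted p = 8.72e-05), and it was -2.80 with the covariate. IFI44 showed the same order, with log2 changes of 1.52 and 4.59 and a response difference of -3.07 ± 0.34 (limma adjusted p = 0.00128), or -2.99 with the covariate. IFI44 lay below 1 CPM in each MV4-11 DMSO library, so its rise there was partly fixed by the filter.

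CMPK2, a mitochondrial nucleotide kinase gene next to the antiviral gene RSAD2, was called in MV4-11 alone. Its level was 4.83, 5.13 and 6.96 CPM in Molm-14 with DMSO and 8.91, 6.15 and 8.60 CPM with RMC-4550, which overlapped. In MV4-11 it was 2.26, 4.55 and 2.21 CPM with DMSO and 22.1, 39.3 and 40.9 CPM with RMC-4550, with no overlap. Its response difference was -3.04 ± 0.45 (limma adjusted p = 0.00392). With the covariate CMPK2 also rose in Molm-14, by 0.79 against 3.20 in MV4-11, a difference of -2.42.

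XAF1, an interferon-induced gene linked to apoptosis, also rose in MV4-11 alone. It stood at 28.4, 25.8 and 28.1 CPM in Molm-14 with DMSO and at 28.6, 26.2 and 27.0 CPM with RMC-4550. The MV4-11 libraries held it at 23.3, 24.5 and 20.5 CPM with DMSO and at 70.1, 68.9 and 72.4 CPM with RMC-4550. The Molm-14 groups overlapped and the MV4-11 groups were well apart, and the response difference was -1.64 ± 0.13 (limma adjusted p = 0.000108). With the covariate XAF1 stayed in that class, with log2 changes of 0.04 in Molm-14 and 1.58 in MV4-11.

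EIF2AK2, the gene of the kinase PKR that senses double-stranded RNA, rose by 2.12 (log2) in MV4-11 and measured 0.07 in Molm-14, a response difference of -2.04 ± 0.28 (limma adjusted p = 0.00279). With the covariate it was also called as a rise in Molm-14, by 0.29 against 1.89 in MV4-11, and the difference was -1.60.

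Several genes of the same list were not called as different between the lines. IRF7 rose by 1.53 in Molm-14 and 1.26 in MV4-11 (log2), and IRF9 by 1.05 and 1.06. Their response differences were 0.27 and -0.005, with limma adjusted p of 0.525 and 0.989. SIGLEC1, a surface lectin of macrophages, held 0 reads in each Molm-14 DMSO library and 25, 44 and 30 with RMC-4550, and in MV4-11 it held 10, 5 and 4 reads with DMSO and 275, 212 and 241 with RMC-4550. With 0 reads in 1 group its fitted change is set by the offset added to the reads and is not given. With that group at 3 reads per library, the median response difference of the list was -1.48. Of the 46 genes called as rises in MV4-11 alone, 16 were on the interferon list, which is 16 of its 41 members, and of the 18 genes that moved further in MV4-11 in a shared direction, 14 were.

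**Figure D2:**
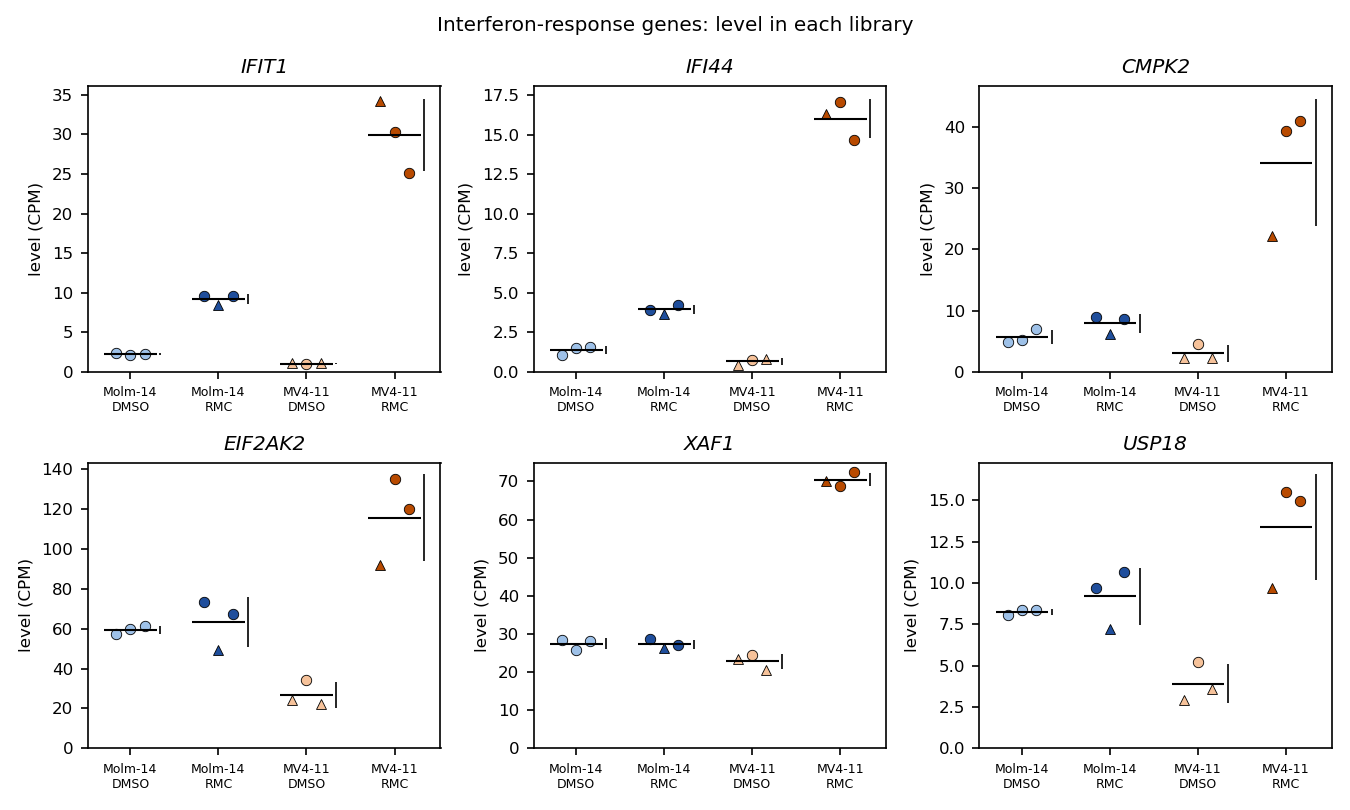
Level in CPM (vertical axis) of 6 interferon-response genes in each library of the 4 groups, with the mean as a horizontal line and the SD as a vertical line; triangles are libraries above 10% mitochondrial reads. XAF1 is flat in Molm-14 and between 68.9 and 72.4 CPM in MV4-11 with RMC-4550.

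Among antigen presentation genes, the response difference was called negative for 1 of 4 in MHC class II and 2 of 15 in class I. The share of all genes was 3.86%. Of 12 MHC class II genes only CIITA, CD74, HLA-DQB1 and HLA-DMA passed the level filter in both lines, and all 4 rose in MV4-11 (against 3.51% of all genes) while 1 rose in Molm-14 (against 18.3%). HLA-DQB1 stood at 1.61, 1.67 and 1.28 CPM in Molm-14 with DMSO and at 1.48, 1.54 and 1.07 CPM with RMC-4550. Its MV4-11 libraries stood at 10.0, 6.34 and 11.3 CPM with DMSO and at 22.7, 17.6 and 21.6 CPM with RMC-4550, with no overlap. Its response difference was -1.36 ± 0.33 (limma adjusted p = 0.0316), or -1.72 with the covariate. The call was lost when any 1 of the 3 Molm-14 DMSO libraries, Molm-14 RMC-4550 replicate 3, MV4-11 DMSO replicate 1 or any 1 of the 3 MV4-11 RMC-4550 libraries was left out, with differences of -1.47 to -1.20. With the covariate all 4 genes were called negative, against 9.97% of all genes.

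TAP2, a subunit gene of the pump that loads peptides for MHC class I, moved only in Molm-14 by the test. Its level was 21.7, 22.95 and 19.6 CPM with DMSO and 9.35, 7.11 and 7.80 CPM with RMC-4550. In MV4-11 it was 17.0, 19.5 and 17.1 CPM with DMSO and 19.9, 18.8 and 19.8 CPM with RMC-4550, where the groups overlapped. The lines differed in response by -1.54 ± 0.17 (limma adjusted p = 0.00126), and -1.39 with the covariate. The median response difference of the 15 MHC class I and peptide loading genes was -0.14, or 0.06 with the covariate. With it 6 were called negative and 2 positive, against 9.97% and 12.9% of all genes. Without it TAP2 and PSMB9 were the 2 called, both negative, against 3.86% of all genes. That count was 5 without MV4-11 DMSO replicate 2, and 1 without any 1 of the 3 Molm-14 DMSO libraries, Molm-14 RMC-4550 replicate 3, MV4-11 DMSO replicate 1 or 3, or MV4-11 RMC-4550 replicate 2 or 3.

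Ribosome biogenesis genes, which build ribosomal subunits in the nucleolus, fell in Molm-14 and not by the test in MV4-11. Of 29 genes compared, 28 fell in Molm-14 (against 21% of all genes) and 0 were called in either direction in MV4-11, where 5 were lower and 0 higher at an unadjusted limma p under 0.05 and voom weights gave 0. A negative response difference was called for 17 (3.86% of all genes) and a positive one for 0, and all 17 were called in Molm-14 alone. The unadjusted counts at a limma p under 0.05 were 25 and 0, and voom weights gave 17 and 0. The median log2 change was -0.85 in Molm-14 and -0.04 in MV4-11, and the median difference was -0.78 against -0.03 for all genes. Fewer were called when 1 library was left out, 9 without Molm-14 DMSO replicate 1 or 2, and 8 without Molm-14 DMSO replicate 3, MV4-11 DMSO replicate 1 or 3, or MV4-11 RMC-4550 replicate 2. With the covariate 25 were called negative with a median difference of -0.69, against 9.97% of all genes. In that fit 11 of the 29 fell in MV4-11 too, against 24.7% of all genes.

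NOLC1, a nucleolar chaperone gene, stood at 196, 191 and 191 CPM in Molm-14 with DMSO and at 87.5, 60.5 and 91.6 CPM with RMC-4550. In MV4-11 it stood at 86.8, 133 and 86.1 CPM with DMSO and at 90.3, 108 and 95.9 CPM with RMC-4550. The Molm-14 groups were apart and the MV4-11 groups overlapped. Its response difference was -1.27 ± 0.26 (limma adjusted p = 0.0182), lost without Molm-14 DMSO replicate 1, MV4-11 DMSO replicate 1 or 3, or MV4-11 RMC-4550 replicate 2 (differences of -1.26 to -1.16). With the covariate it was -0.86, and a fall of 0.23 in MV4-11 was also called. With RMC-4550, 2 of the 3 Molm-14 libraries lay within the range of MV4-11 with DMSO. MYBBP1A, which encodes a nucleolar protein that binds MYB, had the lowest adjusted p of the 17, with a response difference of -0.87 ± 0.11 (limma adjusted p = 0.00170), or -0.88 with the covariate.

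The promoter search was also run for 3 other lists. CACGTG, the E-box bound by MYC, was found for 2 of 23 ribosome biogenesis promoters against 6.49% of all promoters. TTTCCCGC, an E2F motif, was found for 7 of 24 DNA replication promoters against 1.42%, and the sterol element SRE, as 1 fixed sequence, for 1 of 23 sterol and fatty acid promoters against 0.0366%. The absence of these letters from a window says nothing of the factor.

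Most sterol and fatty acid synthesis genes fell in Molm-14, and fewer were called in MV4-11. Of 29 genes compared, 25 fell in Molm-14 and 13 in MV4-11 (against 21% and 5.78% of all genes), with median log2 changes of -1.37 and -0.54. A negative response difference was called for 10 (3.86% of all genes) and a positive one for 0, and of these 5 were called in Molm-14 alone and 5 fell in both lines. The unadjusted counts were 17 and 0, and voom weights gave 9 and 0. Leaving out MV4-11 DMSO replicate 2 raised the 10 to 18. The covariate shrank the median difference from -0.85 to -0.35. With it 14 genes were called negative and 28 of 29 fell in MV4-11, against 9.97% and 24.7% of all genes.

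SQLE, the squalene epoxidase gene, stood at 102, 103 and 100.05 CPM in Molm-14 with DMSO and at 29.6, 17.7 and 24.7 CPM with RMC-4550. In MV4-11 its level was 52.9, 91.0 and 58.0 CPM with DMSO and 38.1, 51.9 and 48.1 CPM with RMC-4550. The groups did not overlap in either line, but the change in MV4-11 was not called. The response difference was -1.59 ± 0.31 (limma adjusted p = 0.0142), and -1.10 with the covariate, where a fall of 0.77 in MV4-11 was also called. FADS1, a fatty acid desaturase gene, fell by 2.13 in Molm-14 and by 0.53 in MV4-11, and its response difference was -1.60 ± 0.20 (limma adjusted p = 0.00206), or -1.47 with the covariate.

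Most genes of DNA replication and mitosis fell in both lines. All 30 replication genes fell in Molm-14 and 19 in MV4-11, and of 28 mitosis genes 27 fell in Molm-14 and 17 in MV4-11, against 21% and 5.78% of all genes. The other mitosis gene, NUSAP1, which encodes a spindle protein, rose in Molm-14 by 1.53 (limma adjusted p = 0.0330) from a mean of 0.935 CPM. The response difference was called negative for 6 replication genes, namely CDC6, GINS1, PCNA, E2F1, FEN1 and UHRF1, and for 0 mitosis genes, against 3.86% of all genes. PCNA, the sliding clamp of the replication fork, fell by 1.16 in Molm-14 and by 0.59 in MV4-11, a response difference of -0.57 ± 0.11 (limma adjusted p = 0.0162), or -0.49 with the covariate. The count of 6 became 2 or 3 without any 1 of the 3 Molm-14 DMSO libraries, MV4-11 DMSO replicate 1 or 3, or MV4-11 RMC-4550 replicate 2 or 3, became 10 without MV4-11 RMC-4550 replicate 1 and 21 without MV4-11 DMSO replicate 2. For mitosis, 5 genes had a lower and 1 a higher response difference at an unadjusted limma p under 0.05, and voom weights also gave 0 calls. Leaving out MV4-11 DMSO replicate 2 raised the 0 negative mitosis calls to 11 and leaving out MV4-11 RMC-4550 replicate 1 raised them to 1. The first of these fits kept only MV4-11 DMSO libraries above 10% mitochondrial reads. With the covariate 17 of 30 replication genes and 2 of 28 mitosis genes were called negative, against 9.97% of all genes.

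The genes of the MAPK output list, chosen to follow ERK activity, fell in Molm-14, and most of them in MV4-11. All 12 MAPK output genes compared fell in Molm-14 and 7 of them in MV4-11 (against 21% and 5.78% of all genes), with median log2 changes of -1.12 and -0.92. The response difference was called for ETV4 alone, as negative, which is 1 of 12 against 3.86% of all genes. ETV4, an ETS factor that follows ERK activity, stood at 17.4, 20.8 and 21.6 CPM in Molm-14 with DMSO and at 2.30, 1.09 and 2.21 CPM with RMC-4550. The MV4-11 libraries held it at 10.1, 12.7 and 8.98 CPM with DMSO and at 2.96, 3.90 and 3.35 CPM with RMC-4550. It fell without overlap in both lines, by 3.47 and by 1.63 on the log2 scale, and the response difference was -1.84 ± 0.37 (limma adjusted p = 0.0159), or -1.29 with the covariate. The count of MAPK output genes called negative became 3 without Molm-14 RMC-4550 replicate 1 and 5 without MV4-11 DMSO replicate 2. A separate list of 15 immediate early genes did not move as 1 group. In Molm-14, 3 rose and 4 fell (against 18.3% and 21% of all genes). In MV4-11 0 were called, though 2 were lower at an unadjusted limma p under 0.05 and 1 with voom weights. The median response difference of that list was 0.41, or -0.01 with the covariate.

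DUSP6, the ERK phosphatase gene, fell by 0.62 in Molm-14 and by 0.93 in MV4-11, and SPRY4, a Sprouty feedback gene, fell by 3.65 and by 2.55. Their response differences were 0.31 ± 0.29 and -1.10 ± 0.56, with limma adjusted p of 0.457 and 0.212, so neither was shown to differ. With the covariate the median changes of the list were -1.14 in Molm-14 and -1.16 in MV4-11, and the median difference was -0.36. In that fit 3 genes were called negative and 1 positive, against 9.97% and 12.9% of all genes. PTPN11, the gene of the drug's target, had a response difference of -0.70 (limma adjusted p = 0.213), and FLT3 one of -0.65 (limma adjusted p = 0.0662). With the covariate these were -0.12 and -0.37 (limma adjusted p = 0.473 and 0.0101). PTPN11 itself fell by 1.00 in Molm-14 (limma adjusted p = 0.00955) and measured -0.30 in MV4-11, which was not called. With the covariate its falls of 0.71 in Molm-14 and 0.59 in MV4-11 were both called. FLT3 measured -0.17 in Molm-14 and 0.48 in MV4-11, neither called, and with the covariate its rise of 0.34 in MV4-11 was called.

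**Figure D3:**
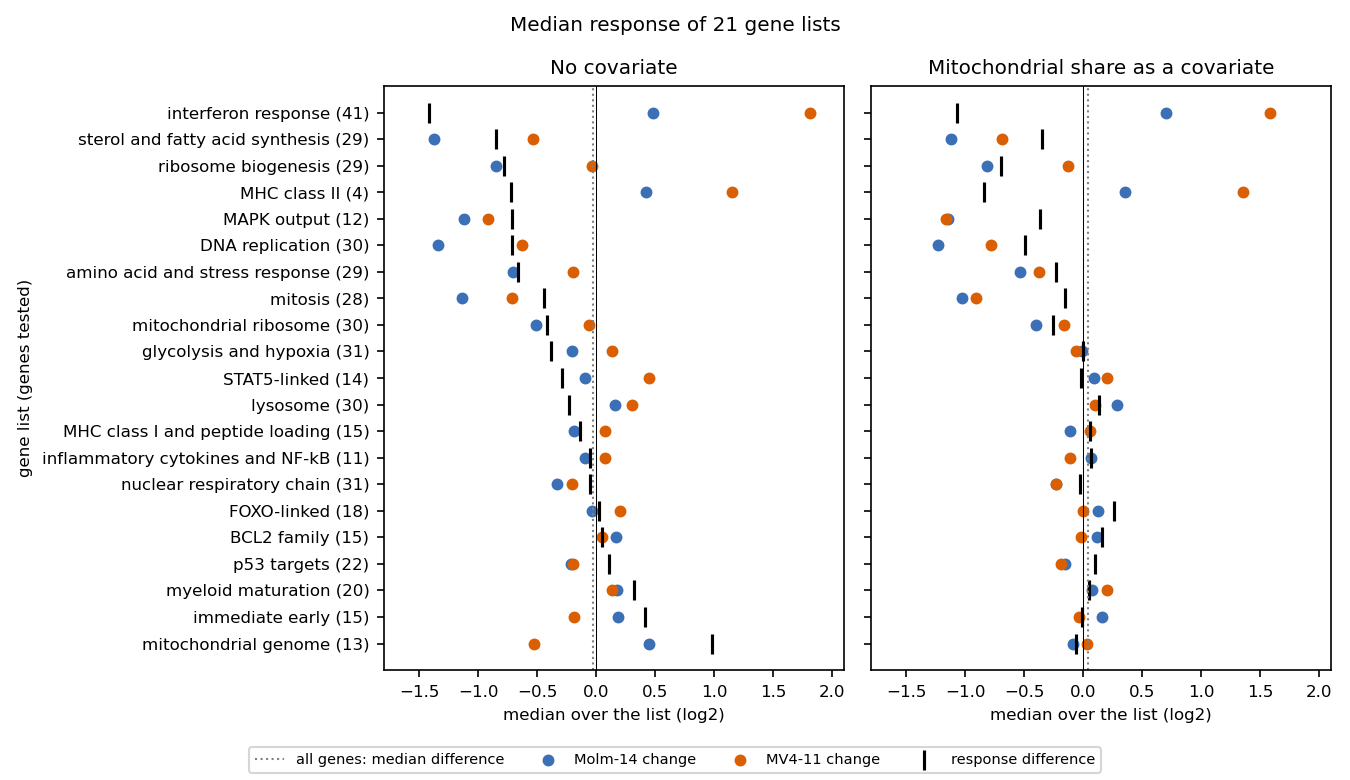
Median log2 change of each of 21 gene lists in Molm-14 (blue) and MV4-11 (orange), and median response difference (black bar), without the covariate on the left and with it on the right; the number of genes compared is in brackets. The interferon list has the median difference farthest below 0 in both panels, -1.42 and -1.07. The mitochondrial genome list moves from 0.98 to -0.06, which was largely fixed in advance, since its reads are part of the covariate.

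Of the 22 genes that changed in opposite directions, the 8 with the largest changes in both lines are described. The response difference of each was called whichever library was left out. A call of the difference with the covariate was required of them. The opposite class itself went from 22 genes to 6 without MV4-11 DMSO replicate 1 or 3, or MV4-11 RMC-4550 replicate 2. The calls within both lines were thus less steady than those of the difference. ZFP36L1, which encodes a protein that speeds the decay of AU-rich mRNAs, stood at 39.0, 36.3 and 38.7 CPM in Molm-14 with DMSO and at 72.4, 71.2 and 67.4 CPM with RMC-4550. Its MV4-11 libraries stood at 32.7, 34.1 and 34.4 CPM with DMSO and at 20.8, 21.1 and 20.5 CPM with RMC-4550. The lines started near each other and moved apart without overlap. The log2 changes were 0.89 and -0.70, and the response difference was 1.58 ± 0.11 (limma adjusted p = 6.40e-05), or 1.59 with the covariate.

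IL15RA, the receptor chain that presents interleukin-15, moved the other way. Its level was 15.2, 15.8 and 14.04 CPM in Molm-14 with DMSO and 7.76, 5.89 and 8.09 CPM with RMC-4550. In MV4-11 it was 9.36, 11.4 and 10.1 CPM with DMSO and 14.6, 13.6 and 15.7 CPM with RMC-4550. The groups did not overlap in either line, and the response difference was -1.57 ± 0.20 (limma adjusted p = 0.00194), or -1.37 with the covariate. CD1D, which encodes a lipid antigen-presenting molecule, fell by 0.68 in Molm-14 and rose by 0.55 in MV4-11, with a response difference of -1.23 ± 0.20 (limma adjusted p = 0.00690), or -1.27 with the covariate.

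CYP1B1, a cytochrome P450 gene, rose by 1.82 in Molm-14 from 0.50, 0.461 and 0.557 CPM to 1.97, 1.60 and 2.04 CPM. In MV4-11 it fell by 1.05 from 9.31, 14.5 and 9.10 CPM to 3.86, 6.58 and 5.43 CPM, so the lines came closer together with RMC-4550. Its response difference of 2.87 ± 0.34 (limma adjusted p = 0.00165), or 3.29 with the covariate, rests on 8 to 10 reads in each Molm-14 DMSO library. The gene entered in Molm-14 through the RMC-4550 group only, so its rise there was partly fixed by the filter. NKD2, a gene of a Wnt pathway inhibitor, rose by 0.68 and fell by 0.71, NEUROG3, a transcription factor gene, rose by 0.72 and fell by 0.68, and ONECUT2, another transcription factor gene, rose by 0.51 and fell by 0.49, each first in Molm-14 and then in MV4-11. KIFC3, a kinesin gene, rose by 0.47 in Molm-14 and fell by 0.61 in MV4-11. The response differences of these 4 were 1.39, 1.40, 1.00 and 1.09, and with the covariate 1.07, 1.25, 0.90 and 1.32.

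**Figure D4:**
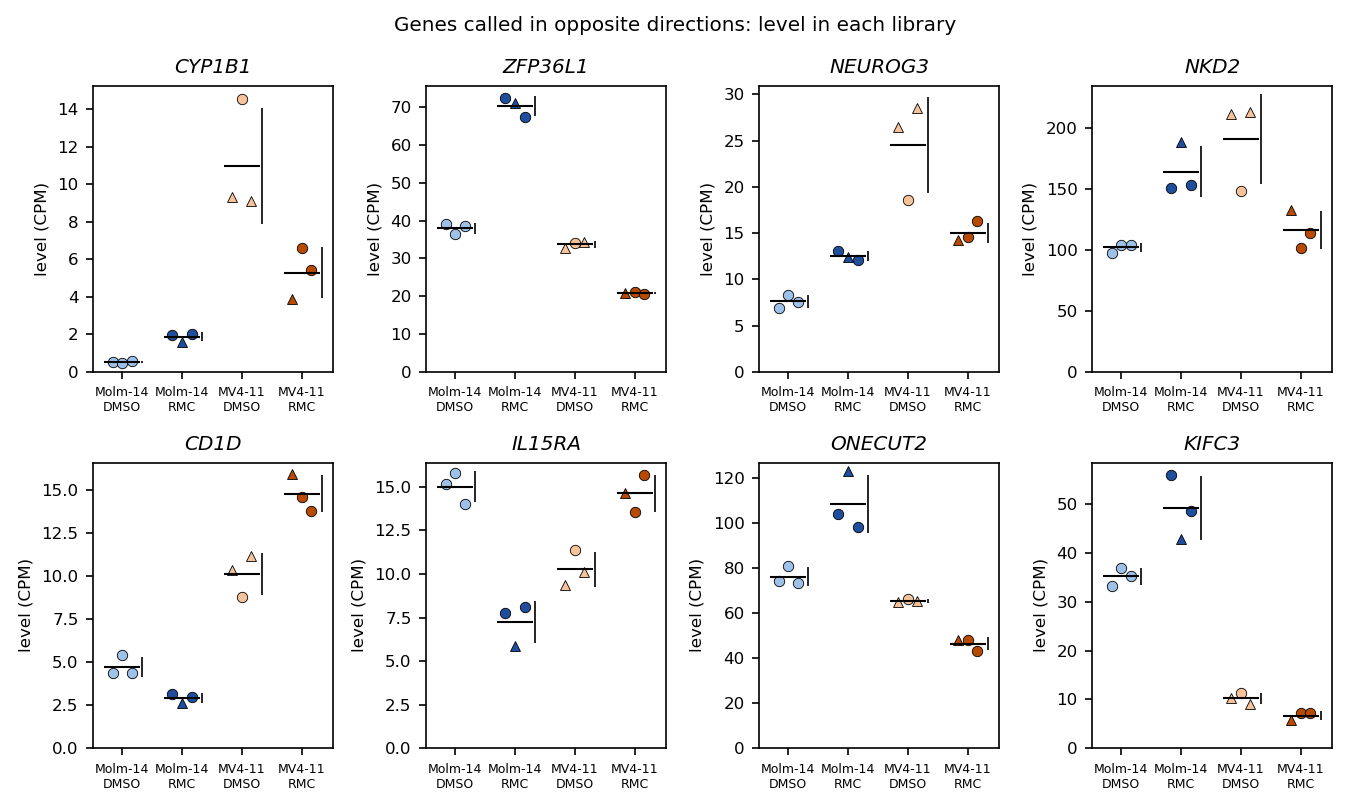
Level in CPM (vertical axis) of 8 genes called in opposite directions, in each library of the 4 groups, with the mean as a horizontal line and the SD as a vertical line; triangles are libraries above 10% mitochondrial reads. ZFP36L1 rises to between 67.4 and 72.4 CPM in Molm-14 and falls to between 20.5 and 21.1 CPM in MV4-11.

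The largest rises called in Molm-14 alone were GPSM1, LINC01226, PNPLA7, MEGF6 and CNR2, with response differences of 3.13, 2.69, 2.48, 2.44 and 2.41. CNR2, the cannabinoid receptor gene of blood cells, stood at 40.7, 37.0 and 39.9 CPM in Molm-14 with DMSO and at 181, 290 and 198 CPM with RMC-4550. In MV4-11 it stood at 38.7, 25.8 and 43.6 CPM with DMSO and at 46.4, 30.8 and 35.1 CPM with RMC-4550. The lines shared a level with DMSO, and the MV4-11 groups overlapped. Its response difference was 2.41 ± 0.32 (limma adjusted p = 0.00254), and 1.90 with the covariate, where MV4-11 also rose by 0.32. LINC01226 and PNPLA7 were likewise called as rises in MV4-11 with the covariate, by 0.47 and 0.52.

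GPSM1, which encodes a regulator of G protein signalling, differed in where the lines started. It stood at 0.278, 0.461 and 0.780 CPM in Molm-14 with DMSO and at 3.66, 5.38 and 4.75 CPM with RMC-4550. MV4-11 held it at 20.5, 15.9 and 19.7 CPM with DMSO and at 22.6, 16.4 and 20.5 CPM with RMC-4550. Treated Molm-14 cells thus stayed below both MV4-11 groups. GPSM1 held 5, 8 and 14 reads in the Molm-14 DMSO libraries and entered in Molm-14 through the RMC-4550 group only, so its rise and its rank were partly fixed by the filter. Its difference was 2.86 with the covariate. The largest falls called in Molm-14 alone were KCNK5, KIF17, ENDOD1, IL21R and IGFBP2, with response differences of -2.71, -2.71, -2.31, -2.29 and -2.16. All 5 stood below 9 CPM in each Molm-14 library. KIF17, ENDOD1 and IGFBP2 entered in Molm-14 through the DMSO group only and held 2 to 11 reads per library with RMC-4550, so their falls were partly fixed by the filter. KCNK5 and KIF17 were called as rises in MV4-11 once the covariate was used. The call of IL21R was lost without Molm-14 DMSO replicate 1 or 3, MV4-11 DMSO replicate 1 or 3, or MV4-11 RMC-4550 replicate 2 or 3 (differences of -2.29 to -2.16), and with the covariate it was also called as a fall in MV4-11.

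The falls called in MV4-11 alone included DLX2, a homeobox gene, and PDGFA, a growth factor gene. DLX2 stood at 17.7, 19.7 and 18.4 CPM in MV4-11 with DMSO and at 5.49, 5.72 and 7.36 CPM with RMC-4550. In Molm-14 it stood at 21.4, 21.2 and 19.7 CPM with DMSO and at 18.9, 13.2 and 21.5 CPM with RMC-4550. The Molm-14 groups overlapped and the MV4-11 groups did not, and the response difference was 1.35 ± 0.25 (limma adjusted p = 0.0102), or 1.62 with the covariate. PDGFA fell by 1.13 in MV4-11 and measured 0.10 in Molm-14, a response difference of 1.22 ± 0.20 (limma adjusted p = 0.00630), or 0.96 with the covariate.

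The BCL2 family, which holds genes that promote and genes that block cell death, gave 5 calls among 15 genes, 2 positive and 3 negative, against 4.75% and 3.86% of all genes. The 2 positive calls became 4 without MV4-11 DMSO replicate 2, and 1 without any other library except Molm-14 RMC-4550 replicate 1. With the covariate 4 genes of the family were called positive and 4 negative, against 12.9% and 9.97% of all genes. BMF, a BH3-only gene that promotes cell death, stood at 64.0, 67.9 and 68.5 CPM in Molm-14 with DMSO and at 331, 248 and 309 CPM with RMC-4550. The MV4-11 libraries held it at 114, 136 and 108 CPM with DMSO and at 147, 177 and 187 CPM with RMC-4550. It rose without overlap in both lines, by 2.14 and 0.51, and the response difference was 1.62 ± 0.19 (limma adjusted p = 0.00135), or 1.89 with the covariate. PMAIP1, the gene of the BH3-only protein NOXA, fell by 0.77 in Molm-14 and measured 0.21 in MV4-11, with a response difference of -0.98 ± 0.18 (limma adjusted p = 0.00993), or -0.90 with the covariate.

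BCL2, the survival gene of the family's name, stood at 70.5, 77.7 and 75.0 CPM in Molm-14 with DMSO and at 35.6, 19.7 and 31.2 CPM with RMC-4550. Its MV4-11 libraries stood at 41.2, 75.8 and 40.2 CPM with DMSO and at 42.3, 66.1 and 56.8 CPM with RMC-4550, where the 2 low DMSO values came from libraries with a high mitochondrial share. The lines differed in response by -1.52 ± 0.39 (limma adjusted p = 0.0362), and -0.89 with the covariate. The call was lost without any 1 of the 3 Molm-14 DMSO libraries, Molm-14 RMC-4550 replicate 2 or 3, MV4-11 DMSO replicate 1 or 3, or MV4-11 RMC-4550 replicate 2 or 3 (differences of -1.60 to -1.27).

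**Figure D5:**
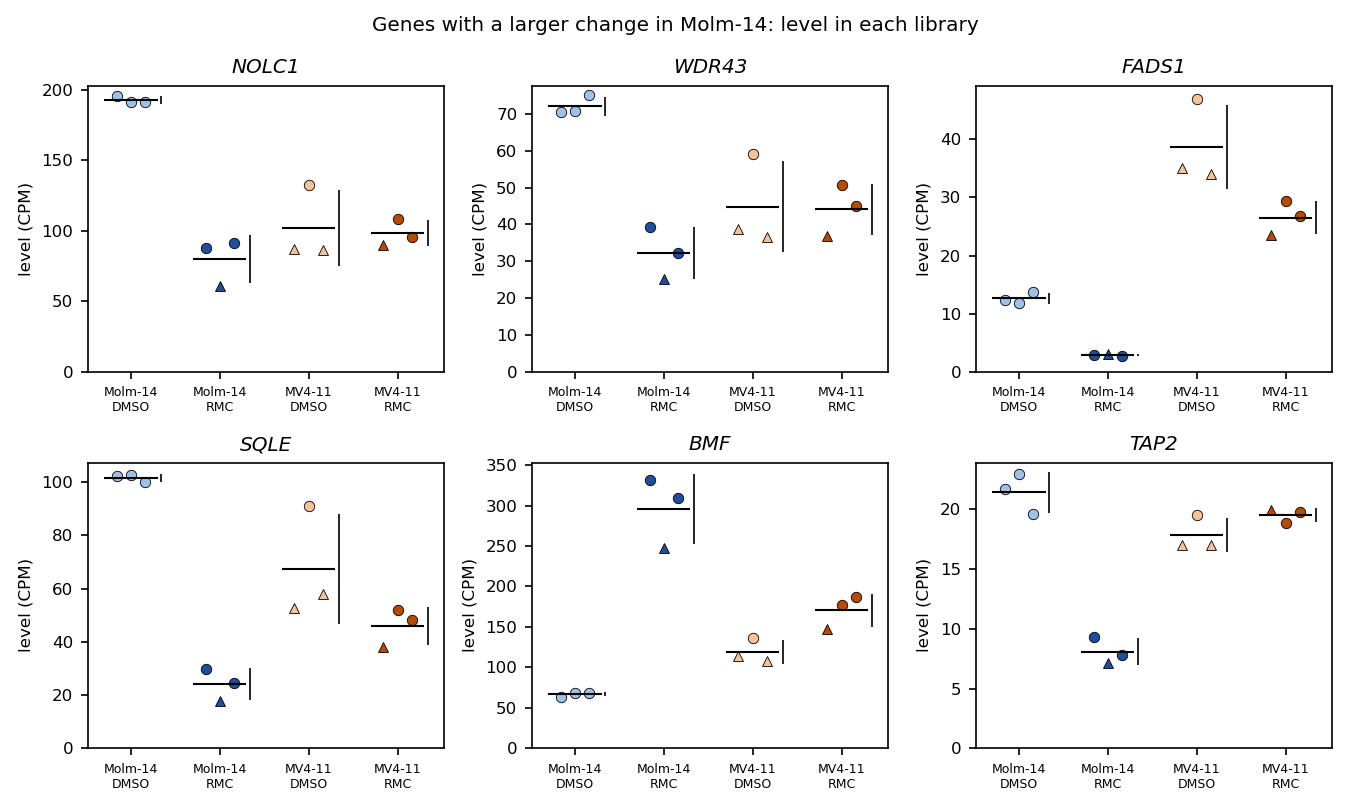
Level in CPM (vertical axis) of 6 genes with a larger change in Molm-14, in each library of the 4 groups, with the mean as a horizontal line and the SD as a vertical line; triangles are libraries above 10% mitochondrial reads. TAP2 falls to between 7.11 and 9.35 CPM in Molm-14 with RMC-4550, below each MV4-11 library.

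PIM1, a kinase gene linked to STAT5, rose in MV4-11 alone. It stood at 93.9, 84.6 and 95.2 CPM with DMSO and at 146, 137 and 141 CPM with RMC-4550, and in Molm-14 at 37.5, 37.8 and 35.5 CPM with DMSO and at 31.6, 33.9 and 30.7 CPM with RMC-4550. The 2 groups of each line were apart, in opposite directions, but the Molm-14 change of -0.20 was not called without the covariate. The response difference was -0.83 ± 0.12 (limma adjusted p = 0.00304), or -0.94 with the covariate, where the Molm-14 fall was called. OSM, the gene of the cytokine oncostatin M, fell by 0.82 in Molm-14 and measured 0.29 in MV4-11, a response difference of -1.11 ± 0.19 (limma adjusted p = 0.00760), or -1.10 with the covariate.

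Of 20 myeloid maturation genes, 3 had a positive and 3 a negative response difference, against 4.75% and 3.86% of all genes. The positive calls became 1 without Molm-14 DMSO replicate 1 or 2, Molm-14 RMC-4550 replicate 3 or MV4-11 RMC-4550 replicate 2, and 6 without MV4-11 DMSO replicate 2. The negative calls became 1 without Molm-14 DMSO replicate 1 or 2, MV4-11 DMSO replicate 1 or 3, or MV4-11 RMC-4550 replicate 3. With the covariate 6 of the 20 were called positive and 5 negative, against 12.9% and 9.97% of all genes. CTSG, the cathepsin G gene of primary granules, rose by 1.09 in MV4-11 and measured -0.11 in Molm-14, with a response difference of -1.20 ± 0.24 (limma adjusted p = 0.0159), or -0.86 with the covariate. CSF1R, the receptor gene of macrophage growth factor, rose in both lines, by 2.47 in Molm-14 and 1.20 in MV4-11. Its response difference of 1.28 ± 0.29 (limma adjusted p = 0.0243) was lost without Molm-14 DMSO replicate 1 or 2, Molm-14 RMC-4550 replicate 3 or MV4-11 RMC-4550 replicate 2 (differences of 1.13 to 1.32), and it was 1.67 with the covariate. BTG2, an antiproliferative p53 target gene, rose by 1.13 in Molm-14 and measured 0.23 in MV4-11. Its response difference was 0.89 ± 0.15 (limma adjusted p = 0.00683), or 1.02 with the covariate. Of 22 p53 target genes, 2 rose and 7 fell in Molm-14, against 18.3% and 21% of all genes. GDF15, also on that list, fell by 1.93 in Molm-14 and 1.28 in MV4-11. The response difference was called positive for 2 of the 22 and negative for 1, against 4.75% and 3.86%. Leaving out 1 library gave 1 to 4 and 0 to 3. The covariate gave 7 and 3, against 12.9% and 9.97% of all genes.

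In the amino acid, glycolysis and mitochondrial lists, between 0 and 5 genes had a called difference. The response difference was called negative for 5 of 29 amino acid and stress response genes, 2 of 31 glycolysis and hypoxia genes and 2 of 30 mitochondrial ribosome genes, against 3.86% of all genes. Of the last 2, MRPS28 entered in Molm-14 through the DMSO group only, so its fall there was partly fixed by the filter. GPT2, an alanine aminotransferase gene, fell by 1.56 in Molm-14 and by 0.50 in MV4-11, and its response difference was -1.05 ± 0.12 (limma adjusted p = 0.00130), and it was called again with the covariate. Leaving out MV4-11 DMSO replicate 2 raised these 3 counts to 15, 8 and 7. The first became 3 without any 1 of the 3 Molm-14 DMSO libraries, MV4-11 DMSO replicate 1 or 3, or MV4-11 RMC-4550 replicate 3. The second became 1 without any of these, Molm-14 RMC-4550 replicate 3 or MV4-11 RMC-4550 replicate 2, and the third 0 or 1 without any library except MV4-11 DMSO replicate 2 and Molm-14 RMC-4550 replicate 3. With the covariate the median differences of the 3 lists went from -0.67, -0.39 and -0.41 to -0.23, -0.004 and -0.25. The negative calls then became 11, 2 and 8 (against 9.97% of all genes) and the positive ones 0, 5 and 0 (against 12.9%). Of 31 nuclear respiratory chain genes and 13 mitochondrially encoded genes, 0 were called in either direction, and voom weights also gave 0. At an unadjusted limma p under 0.05 the first list had 1 lower and 2 higher, and the second 0. The mitochondrially encoded genes had a median difference of 0.98 without the covariate, and -0.06 with it. Their own reads are part of the covariate, so this move towards 0 was largely fixed in advance.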

How the data were processed

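RNA-seq of 12 libraries (Molm-14 and MV4-11, each with DMSO or RMC-4550) was used, grouped by the labels. The authors deposited 1 table of log2 CPM values for 18 libraries. Per the submitters' processing notes, FastQC, STAR, limma and GRCh38 were used, with no role or order given. The counting tool and the annotation are not given in the sources used here. From the values, each log2 value was that of reads plus 0.5, scaled to CPM by an effective library, with scaling factors of 0.890 to 1.03. Undoing this gave whole reads, within 0.01, for 100% of low values, and CPM levels were computed from those reads. Intervals from reads would cover counting error only, since the protocol amplified without molecular identifiers.

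The deposited log2 values were fitted with limma 3.58.1 in R 4.3.3 (lmFit, contrasts.fit, and two-sided tests after eBayes with trend), with 1 coefficient per group. Benjamini-Hochberg adjustment ran over 13458 genes, and genes were called at an adjusted p-value under 0.05. The mitochondrial share came from 23 MT- genes. A symbol was found for 40069 of 40184 gene IDs. There were 24 alternative fits.

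The members and the 21 gene lists were chosen with earlier results of these data known. Named genes were PTPN11 and FLT3, the 8 largest opposite changes, and the 5 largest rises and 5 largest falls called in each line alone. To these were added up to 3 members of each list called with and without the covariate, or the members with the highest level where none was called. The opposite and single-line genes needed a mean of 5 CPM in a group and a call with the covariate. Genes named beyond this rule (SIGLEC1, IRF7, IRF9, BST2, PCNA, E2F1, UHRF1, MYBBP1A, NUSAP1, IFI44L, OAS3, OASL, DUSP6, SPRY4, CIITA, CD74, HLA-DMA and the promoters) were chosen after their values were seen, as were the motifs. Some genes that these rules or the marker lists hold are not reported here. Same-numbered replicates did not pair. Python 3.11.15 with matplotlib 3.10.9 drew the figures.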

Additional observations from a re-analysis of the deposited data

Results flagged for a closer look

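Each result given here was singled out because the change with RMC-4550 differed between Molm-14 and MV4-11 by limma's test of the difference itself, and no explanation was tested. The test called 639 genes with a positive and 519 with a negative difference. The values in brackets are response differences (log2, Molm-14 minus MV4-11).

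Of the named genes called in opposite directions, the differences were CYP1B1 (2.87), ZFP36L1 (1.58), NEUROG3 (1.40), NKD2 (1.39), KIFC3 (1.09), ONECUT2 (1.00), CD1D (-1.23) and IL15RA (-1.57). For those called in MV4-11 alone they were CMPK2 (-3.04), EIF2AK2 (-2.04), USP18 (-1.65), XAF1 (-1.64), HLA-DQB1 (-1.36), CTSG (-1.20), PIM1 (-0.83), DDB2 (0.79), ZFHX3 (1.22), PDGFA (1.22), DLX2 (1.35), MLPH (1.45) and ITGB2-AS1 (1.46). For those called in both lines in the same direction they were ETV4 (-1.84), IFI44 (-3.07), IFIT1 (-2.78), FEN1 (-0.95), GINS1 (-0.88), FADS1 (-1.60), STC2 (-1.11), GPT2 (-1.05), GDF15 (-0.65), BMF (1.62) and CSF1R (1.28).

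For rises called in Molm-14 alone they were GPSM1 (3.13), LINC01226 (2.69), PNPLA7 (2.48), MEGF6 (2.44), CNR2 (2.41), S100A8 (1.64), BTG2 (0.89), BCL6 (0.81), TFE3 (0.59) and MCOLN1 (0.57). For falls called in Molm-14 alone they were KCNK5 (-2.71), KIF17 (-2.71), ENDOD1 (-2.31), IL21R (-2.29), IGFBP2 (-2.16), MRPS28 (-2.05), SLC7A1 (-1.77), SQLE (-1.59), TAP2 (-1.54), BCL2 (-1.52), NOLC1 (-1.27), WDR43 (-1.19), PPAN (-1.18), OSM (-1.11), ALDOC (-1.09), CDC6 (-0.99), PMAIP1 (-0.98), ATF3 (-0.75), MRPS7 (-0.71), BNIP3 (-0.71) and PSMB9 (-0.47). Of these 63 named genes, 36 were called whichever library was left out, and 27 lost the call without at least 1 library. CYP1B1, ENDOD1, GPSM1, IFI44, IGFBP2, KIF17 and MRPS28 entered through 1 group of a line only. Their direction in that line was thus partly fixed by the filter.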

How the results depend on the processing

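Counts of calls moved with the processing by more than the direction of single genes did, and the cause was not tested. The fit without libraries above 10% mitochondrial reads left 1 MV4-11 DMSO library. The fit that kept only such libraries of MV4-11 had 1 MV4-11 RMC-4550 library. The MV4-11 calls, response differences and class counts of these fits therefore rested on an unreplicated MV4-11 group, and are not replicated results. The response difference had 639 positive and 519 negative calls. These became 1738 and 1342 with the mitochondrial covariate, 1598 and 1206 without libraries above 10% mitochondrial reads, 1410 and 1246 with all 18 libraries in the fit, 291 and 243 when all genes entered unfiltered, and 129 and 119 with the MV4-11 libraries above 10% mitochondrial reads only, an alternative chosen after seeing the data. Leaving out 1 library gave 227 to 1859 and 170 to 2004. The 1250 MV4-11 calls became 4992, 4547, 2017 and 222 with the covariate, without high-share libraries, with 18 libraries and with high-share MV4-11 libraries only, and 636 to 1828 with 1 library out. The 5287 Molm-14 calls became 8483 without high-share libraries and 3914 to 6049 with 1 library out.

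In the same order (covariate, without high-share libraries, 18 libraries, no filter, high-share MV4-11 only), the 22 opposite genes became 178, 149, 59, 8 and 2. The 881 called in Molm-14 alone became 1554, 1513, 1972, 404 and 208, the 75 in MV4-11 alone 297, 255, 171, 45 and 11, and the 165 with a shared direction 1027, 844, 373, 68 and 27. With 1 library out the ranges were 6 to 49, 304 to 2840, 27 to 276 and 68 to 227. The other scalings, log2(CPM + 1), a minimum mean of 5 CPM and voom weights kept each of these counts within 1.5 times.

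Same-numbered libraries did not deviate together in every pair (Molm-14 r of -0.10, -0.02 and 0.06, MV4-11 r of 0.57, 0.74 and -0.54), so the numbers were not used to pair them. With the replicate number as a block there were 615 positive and 503 negative calls, and 10 opposite genes. The block with the mitochondrial share gave 1646 and 1204, with 4723 MV4-11 calls and classes of 207, 1494, 261 and 878.

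The difference changed sign for some genes that were not called. DLGAP5 was 0.022, ATP5F1A 0.147, MT-ATP8 -0.412 and MT-ND2 -0.00058 without high-share libraries, ATP5F1A was 0.088 with the covariate, and ATP5F1A 0.091 and UQCRFS1 0.015 with the block and the share. Genes near 1 CPM rest on few reads.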

Other observations

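The third line of the series, SKNO-1, is labelled with a KIT mutation and was grown with GM-CSF, so line and growth factor cannot be told apart. Its response to RMC-4550 was read from 1 fit of all 18 libraries, chosen after seeing the data. Of the 41 interferon-response genes, 38 rose in SKNO-1 against 10.8% of all genes, with a median log2 change of 1.09. The log2 change of IFIT1 was 3.31 in SKNO-1, that of IFI44 2.02 and that of CMPK2 1.84, each called by limma.

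Of the 8 genes named for opposite changes, 5 were called in SKNO-1 in the direction seen in MV4-11. ZFP36L1 fell by 0.55 (limma adjusted p = 2.11e-05), ONECUT2 by 0.63 and KIFC3 by 1.41, while CD1D rose by 0.64 and IL15RA by 0.83. The changes of CYP1B1, NEUROG3 and NKD2 were 0.49, -0.05 and -0.20 and were not called.

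Across genes high in 1 of the other lines and near 0 in the other, MV4-11 with DMSO often held intermediate levels, and whether its cultures were mixed was not tested beyond them. The 24 genes high in Molm-14 and near 0 in SKNO-1 stood in MV4-11 at a median of 48.6% of the Molm-14 level (4.04% to 129%). The 40 genes high in SKNO-1 and near 0 in Molm-14 stood there at a median of 45.9% of the SKNO-1 level (0.089% to 104%). RUNX1T1 and POU4F1 had been chosen beforehand as markers of SKNO-1, and their levels in SKNO-1 itself were not compared here. RUNX1T1 held 0 reads in MV4-11 with DMSO and at most 1 read per library with RMC-4550. The mean of POU4F1 with DMSO was 2.27 CPM in MV4-11 and 13.2 CPM in Molm-14.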
